A study of Mus musculus with 36 samples.

Results

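A set of 10 genes of DNA replication licensing and origin firing was followed in C2C12 cells, an established line of mouse myoblasts (muscle precursor cells), grown in space or on land with or without nanoceria. The genes were chosen by their known roles: the 6 subunits of the MCM helicase (Mcm2, Mcm3, Mcm4, Mcm5, Mcm6 and Mcm7), the helicase loaders Cdc6 and Cdt1, and the firing kinase Cdc7 with its activator Dbf4. They are 10 of the 49315 genes listed in the counted files, and all 10 were found there and passed the filter on low counts, which left 11558 genes. The list was drawn up with a difference of Dbf4 between space without gravity and land, both with nanoceria, already known, so that difference is given here as a description without a p-value, and nothing is supported with it.

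The 6 groups of 3 polyadenylated RNA libraries each came from proliferating C2C12 cells at passage 6 to 10. Nanoceria are cerium oxide nanoparticles, here coated with serum and put at 100 µg/ml into the medium reservoir of the treated experiment units. The groups were space without gravity with no nanoceria and with nanoceria, space with gravity with no nanoceria and with nanoceria, and land with no nanoceria and with nanoceria. All were kept in flight hardware at 37 °C in the incubator and fixed in RNAlater at day 9 by an automatic cycle, and the land cultures were a repeat run after the flight. Space and land are therefore also 2 separate runs, and these cannot be told apart. Nothing in the sources used here says how gravity was provided in space, and p-values measure the spread between experiment units, which the sources do not tie to separate starting cultures.

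Replication starts from origins that are licensed in G1 phase. Cdc6 and Cdt1, together with the origin recognition complex, load the ring of Mcm2 to Mcm7 onto DNA as an inactive helicase. At the start of S phase the kinase Cdc7, bound to its regulatory subunit Dbf4, phosphorylates the MCM ring and thereby helps to turn it into an active helicase. In cycling cells many licensing genes are transcribed under E2F factors around the G1 to S transition, and dividing myoblasts lower them as they leave the cell cycle to form muscle fibres.

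The promoters of these genes show one feature that the list did not use. RefSeq (build GRCm38.p6) gave a promoter window of 300 bases, from 250 before to 50 after the start, for 9 of the 10 genes, all but Mcm4. Both strands were searched for E2F-type letters (TTTGGCGC, TTTCGCGC, TTTCCCGC or TTTGCCGC), which were found in 6 of the 9 genes, against 2.6% of the 27025 genes with a window. The 6 were Mcm3, Mcm5, Mcm6, Mcm7, Cdc6 and Cdt1. The letters CCAAT, also read on both strands, were in 5 of the 9 and in 41.1% of all genes. The letters TTTGAA, the core of the cell cycle homology region, were in 3 of the 9 (Mcm2, Cdc7 and Dbf4) and in 20.2% of all genes. The stretches that hold the E2F-type letters are shown for the 6 genes because these letters are what they share, with every match inside the stretch in capitals.
Mcm3, chr1:20820263-20820322, minus strand: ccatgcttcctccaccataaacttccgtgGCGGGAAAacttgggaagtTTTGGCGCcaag
Mcm5, chr8:75109334-75109393, plus strand: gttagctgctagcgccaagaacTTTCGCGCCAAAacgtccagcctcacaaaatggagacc
Mcm6, chr1:128359719-128359778, minus strand: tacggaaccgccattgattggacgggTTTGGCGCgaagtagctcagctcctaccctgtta
Mcm7, chr5:138171834-138171893, minus strand: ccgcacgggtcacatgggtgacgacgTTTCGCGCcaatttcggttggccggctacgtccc
Cdc6, chr11:98907987-98908046, plus strand: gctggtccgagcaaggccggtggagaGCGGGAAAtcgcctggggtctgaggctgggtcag
Cdt1, chr8:122568005-122568064, plus strand: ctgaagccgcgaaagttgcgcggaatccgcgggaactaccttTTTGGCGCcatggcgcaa

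In Mcm5 the capitals are a pair of overlapping matches on opposite strands, and in Mcm3 they are separate matches on opposite strands. For the other 3 genes with a window, the TTTGAA letters (or their reverse complement) are in capitals. Dbf4, the one of the 10 genes called between groups, is shown over its whole window.
Mcm2, chr6:88898818-88898877, minus strand: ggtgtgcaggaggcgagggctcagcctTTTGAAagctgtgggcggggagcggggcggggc
Cdc7, chr5:106964297-106964356, plus strand: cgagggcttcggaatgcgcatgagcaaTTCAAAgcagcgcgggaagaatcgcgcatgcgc
Dbf4, chr5:8422667-8422966, minus strand: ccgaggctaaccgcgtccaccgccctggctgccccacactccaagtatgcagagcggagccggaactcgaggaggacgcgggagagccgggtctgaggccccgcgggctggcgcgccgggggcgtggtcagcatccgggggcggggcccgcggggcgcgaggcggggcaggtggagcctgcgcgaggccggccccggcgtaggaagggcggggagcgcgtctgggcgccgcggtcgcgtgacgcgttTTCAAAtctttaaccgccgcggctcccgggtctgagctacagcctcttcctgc

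A letter match describes the sequence and is not evidence of binding. The starts of Dbf4 and of Slc25a40, a gene for a mitochondrial carrier on the opposite strand, lie head to head with 134 bases between them, so the window shown reaches past the start of Slc25a40. Mcm4 and Prkdc, the gene of the DNA-dependent protein kinase catalytic subunit, are likewise head to head, 466 bases apart. The exons of Mcm7 share 321 bases with Ap4m1 and 64 with Cops6, both on the opposite strand. No setting for strand is given in the sources used here, so reads in the shared bases cannot be assigned to one gene.

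Depth limits every value. Libraries held 2986628 to 11378178 counts, except space with gravity and nanoceria replicate 3, which held 23858. The 10 genes together received 119 to 923 counts per library in the 17 larger libraries and 2 counts in the smallest, 1 in Mcm4 and 1 in Mcm7. In the smallest library 3 counts, taken as the limit that a count of 0 allows, stood for 165 CPM (counts scaled to a common library total, here the total outside the 6 most abundant genes), against 0.350 to 2.41 CPM in the others, so a gene at 0 there says nothing. The 6 most abundant genes (Lars2 and 5 Gm genes) took 23.8% to 76.3% of the counts of a library. Of the myoblast markers, Vim, Des and Myf5 had counts in all 18 libraries and Itga7 in 17. Myod1, a defining myoblast factor, had a median of 1 count in the larger libraries and was seen in 10. Pax7 (median 2 counts, seen in 14), Cdh15 (median 5, seen in 15) and Myf6 (median 0, seen in 8) were low as well. Differentiated muscle markers summed to 87.5 CPM in 1 library of land with no nanoceria and to at most 17.8 CPM in the others. Epithelial markers summed to at most 0.976 CPM and endothelial ones to at most 2.32 CPM. Of the 3 leukocyte markers, Ptprc had 6 counts in all and Lyz2 80, but Cd68 had 1770 counts and was seen in 17 libraries. Together they summed to 5.35 to 32.8 CPM in the larger space libraries and 2.63 to 41.8 CPM on land, and their part in the results was not tested. Levels below are CPM on library sizes adjusted for composition by edgeR's TMM method, and means over all groups leave out the smallest library.

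**Figure D1:**
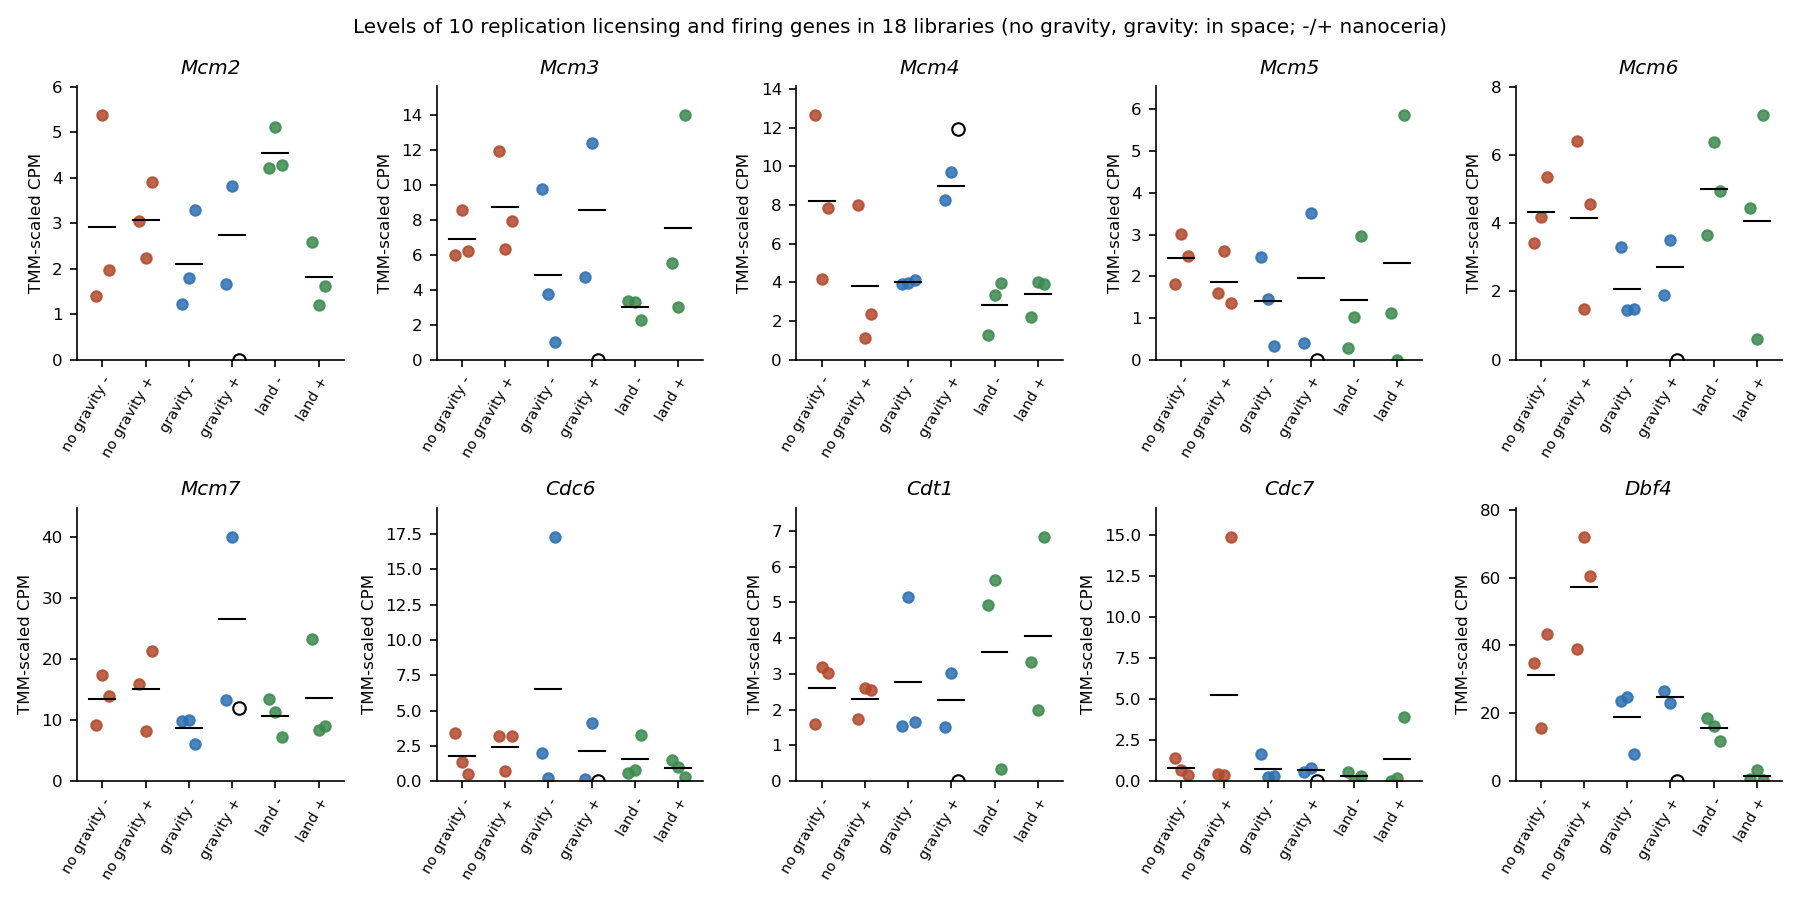
TMM-scaled CPM (vertical axis, a separate linear scale per gene) of the 10 genes in each library of the 6 groups (horizontal axis), with lines at group means of the larger libraries and the smallest library as an open circle. Dbf4 ranges from 0.325 CPM on land with nanoceria to 72.0 CPM in space without gravity with nanoceria, while single libraries stand far above the rest for Cdc6 (17.3 CPM) and Cdc7 (14.9 CPM).

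The MCM subunits were all detected, at unequal levels. Per kilobase of merged exon, the mean level over the 17 larger libraries was 3.16 ± 1.87 CPM per kb for Mcm7 (SD, n = 17). It was 1.73 ± 1.01 for Mcm3 and 1.39 ± 0.886 for Mcm4, in the same unit and over the same libraries. Mcm6 was at 0.810 ± 0.416, Mcm5 at 0.475 ± 0.369 and Mcm2 at 0.412 ± 0.198 CPM per kb. The protein ring holds each subunit once, whereas these are transcript levels, which were unequal and do not measure the protein. Of the summed MCM level per kb, Mcm7 took 39.2% ± 10.6 (SD, n = 17) and was the highest of the 6 in 14 of 17 libraries. Mcm3 was the highest in 2 and Mcm4 in 1 of the others. Mcm5 (5.83% ± 4.29) and Mcm2 (5.81% ± 3.48) took the smallest mean shares, and one of them was the lowest in 15 of the 17 libraries, Mcm5 in 9 and Mcm2 in 6. These shares use the merged exon length; with the principal transcript Mcm2 was at 0.851 CPM per kb, above Mcm5 at 0.561.

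**Figure D2:**
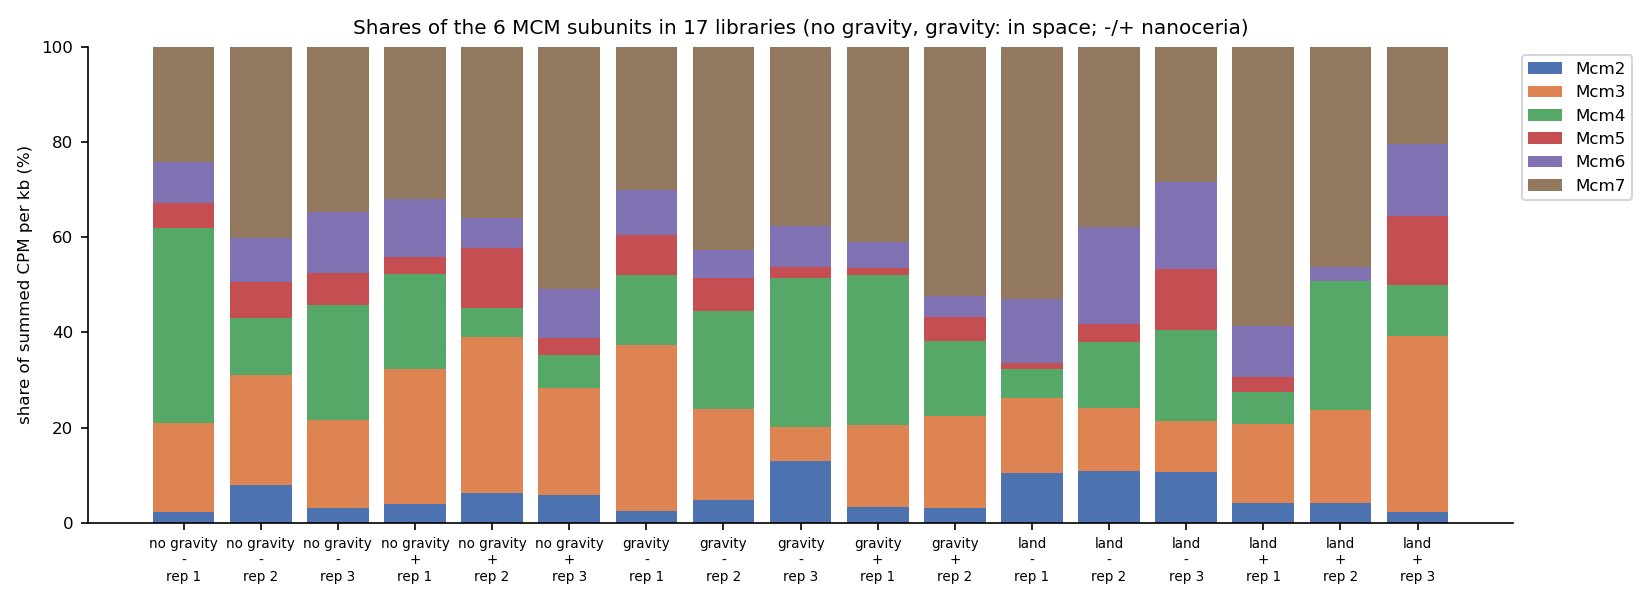
Share of each MCM subunit in the summed level per kb (vertical axis, percent) in the 17 larger libraries (horizontal axis). Mcm7 forms the largest part of 14 bars, and Mcm2 and Mcm5 are the thinnest parts of most.

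Mcm7 (ENSMUSG00000029730, chromosome 5, 138164583 to 138172422, minus strand, GRCm38), the subunit with the most reads, had 22 to 251 counts per larger library. In space without gravity it stood at 9.23, 17.4 and 13.9 CPM with no nanoceria and at 15.9, 8.17 and 21.3 CPM with nanoceria. In space with gravity it stood at 9.93, 10.1 and 6.09 CPM with no nanoceria and at 13.2 and 40.0 CPM with nanoceria, besides 11.9 CPM from 1 count in the smallest library. On land it stood at 13.5, 11.3 and 7.23 CPM with no nanoceria and at 23.3, 8.41 and 9.11 CPM with nanoceria. The only pair of groups parted by nanoceria without overlap was in space with gravity, where the log2 difference was 1.46 ± 0.60 (SE; edgeR adjusted p 1.00, unadjusted p 0.0249).

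Mcm4 (ENSMUSG00000022673, chromosome 16, 15623897 to 15637400, minus strand, GRCm38) was the MCM gene whose groups with and without gravity did not overlap at either nanoceria level. With no nanoceria it stood at 12.6, 4.19 and 7.84 CPM without gravity and at 3.93, 3.95 and 4.12 CPM with gravity. With nanoceria the order turned: it stood at 8.01, 1.11 and 2.37 CPM without gravity and at 8.23 and 9.72 CPM with gravity, besides 11.9 CPM from 1 count in the smallest library. The nearest libraries were close, 4.19 against 4.12 CPM with no nanoceria and 8.01 against 8.23 CPM with nanoceria. How many of all tested genes part without overlap was not counted, here or for Mcm7 above, so nothing is read from it. On land Mcm4 was at 1.26, 3.32 and 3.94 CPM with no nanoceria and at 2.22, 4.01 and 3.91 CPM with nanoceria. The difference between the gravity effects with and with no nanoceria was -2.27 ± 0.93 on the log2 scale, which did not pass the test over all genes (edgeR adjusted p 1.00, unadjusted p 0.0248). Prkdc, its head to head neighbour, went from 4 to 411 counts among the larger libraries, and no averaged comparison of it passed (edgeR adjusted p 0.172 or more).

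Mcm3 ranged from 0.988 to 14.0 CPM with a median of 6.02. Mcm6 ranged from 0.601 to 7.16 CPM with a median of 3.65. The level of Mcm2 ranged from 1.20 to 5.37 CPM with a median of 2.59. Its 3 land libraries with no nanoceria (4.21, 5.11 and 4.27 CPM) all lay above those with nanoceria (2.59, 1.20 and 1.63 CPM). That log2 difference, -1.34 ± 0.67 (SE), did not pass (edgeR adjusted p 0.504, unadjusted p 0.0598). The share of all genes parted likewise was not counted. Mcm5, with 187 counts in all libraries together, ranged from 0 to 5.86 CPM with a median of 1.60 and had no count in 1 larger library. Summed over the 6 subunits, the level was 9.15 ± 0.621 CPM per kb (SD, n = 3) in space without gravity with no nanoceria and 8.61 ± 3.14 (n = 3) with nanoceria. In space with gravity it was 5.48 ± 1.90 (n = 3) with no nanoceria and 12.3 ± 7.03 (n = 2) with nanoceria. On land it was 6.08 ± 0.554 (n = 3) with no nanoceria and 7.74 ± 3.18 (n = 3) with nanoceria. With no nanoceria the 3 libraries without gravity (8.59 to 9.82 CPM per kb) lay above those with gravity and on land, and with nanoceria the ranges of all 3 regimes overlapped; the sum was not tested. As summed MCM counts in CPM outside the 6 most abundant genes, without TMM or length, the libraries without gravity (63.1, 163 and 63.0) overlapped those on land (92.2, 95.6 and 45.8), both with no nanoceria.

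The loaders were low. Cdt1, which carries the MCM ring to the origin, ranged from 0.329 to 6.84 CPM with a median of 2.60, and its regimes overlapped. Cdc6, the ATPase that works with it, had a median of 1.34 CPM, but space with gravity with no nanoceria replicate 3 alone stood at 17.3 CPM. Its 105 counts were 39.6% of all Cdc6 counts, and the next library had 31. In 6 of the 17 larger libraries Cdc6 had 3 counts or fewer.

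The firing kinase was uneven between its parts. Cdc7, the catalytic subunit, had a median of 0.437 CPM and 3 counts or fewer in 9 of the 17 larger libraries. Space without gravity with nanoceria replicate 3 alone gave 88 of its 166 counts (53.0%, 14.9 CPM), and the next library gave 26. Dbf4, the regulatory subunit, had 2763 counts in all and more counts than Cdc7 in 16 of 17 larger libraries. The exception was land with nanoceria replicate 3, with 1 count of Dbf4 and 12 of Cdc7. Between replicates, the biological coefficient of variation was 1.10 for Cdc7 and 0.990 for Cdc6, above 94.99% and 92.0% of the tested genes, and 0.534 for Dbf4, against a median of 0.591 over all tested genes.

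Dbf4 (ENSMUSG00000002297, chromosome 5, 8396973 to 8422716, minus strand, GRCm38, 12 merged exons) was lowest on land with nanoceria. In space without gravity it stood at 34.9, 15.8 and 43.3 CPM with no nanoceria and at 39.0, 72.0 and 60.4 CPM with nanoceria. In space with gravity it stood at 23.7, 24.8 and 7.90 CPM with no nanoceria and at 26.4 and 23.0 CPM with nanoceria, with no count in the smallest library. On land it stood at 18.5, 16.4 and 11.8 CPM with no nanoceria and at 0.740, 3.41 and 0.325 CPM with nanoceria, from 2, 17 and 1 counts. The land libraries with nanoceria were thus below all 14 other larger libraries. How many of all tested genes part in this way was not counted. Those land libraries also enter the difference known when the list was made, so nothing is supported with this. Group means of Dbf4, from the highest, were 57.2 ± 16.7 CPM (SD, n = 3) in space without gravity with nanoceria and 31.3 ± 14.1 (n = 3) with no nanoceria. They were 24.7 ± 2.47 (n = 2) in space with gravity with nanoceria, 18.8 ± 9.43 (n = 3) with no nanoceria, 15.6 ± 3.42 (n = 3) on land with no nanoceria and 1.49 ± 1.67 (n = 3) on land with nanoceria. From the second to the fifth of these means each differed from its neighbour by less than the larger of the SDs. As CPM of the total outside the 6 most abundant genes, without TMM, the land group with no nanoceria (45.9 ± 22.5) moved above both groups in space with gravity (31.9 ± 15.1 with no nanoceria and 43.5 ± 5.28 with nanoceria), and land with nanoceria stayed lowest at 2.89 ± 3.43. Within a library Dbf4 took 24.7% to 73.8% of the counts of the 10 genes in space without gravity, 18.2% to 46.8% in space with gravity, 28.6% to 36.5% on land with no nanoceria, and 0.613% to 14.3% on land with nanoceria.

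Per length, the rank of Dbf4 depended on the length used. Its merged exons in the files measure 8728 bases, while its principal transcript in GENCODE M21 measures 2402 bases and 4 of its 9 annotated transcripts retain an intron. With the merged length Dbf4 stood at 2.85 ± 2.30 CPM per kb (SD, n = 17), the second level after Mcm7. With the principal transcript it stood at 10.3 ± 8.35 CPM per kb, above Mcm7 at 4.73 ± 2.79. After these came Mcm3, Mcm4, Cdt1 (0.948 ± 0.553 CPM per kb with the merged length) and Mcm6, in the same order with either length. Cdc6 was at 0.492 ± 0.767 and Cdc7 lowest at 0.376 ± 0.850 CPM per kb. Neighbours in the order of the merged length differed by less than the larger of their SDs.

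**Figure D3:**
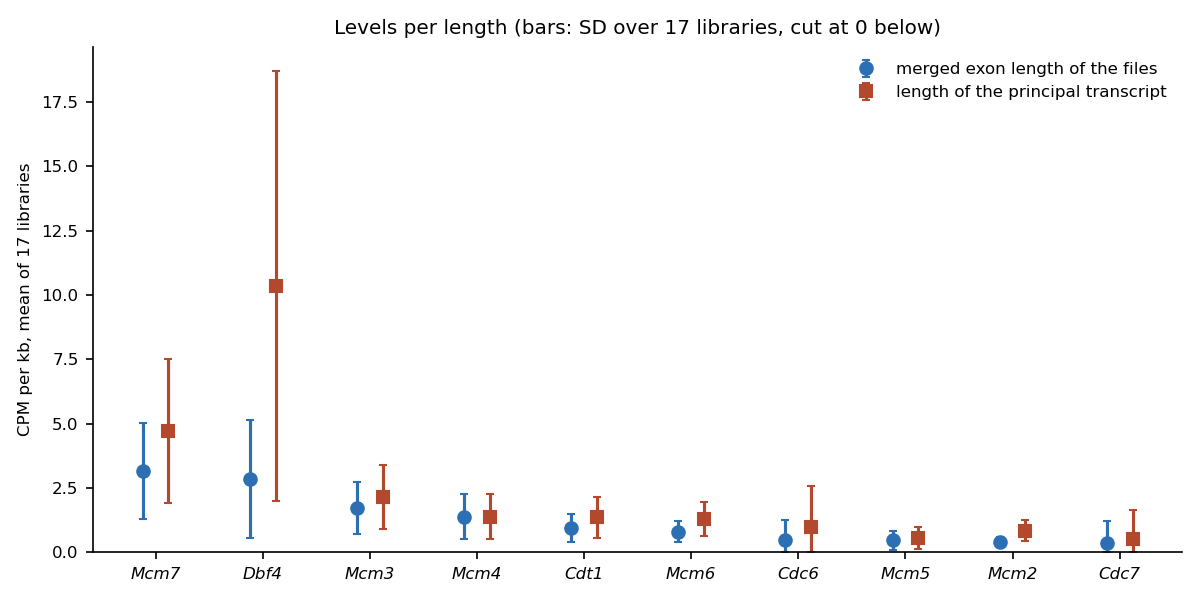
Mean level per kb (vertical axis, CPM per kb) of the 10 genes (horizontal axis) over 17 libraries, with the merged exon length (circles) and with the principal transcript (squares); bars are SDs. Dbf4 moves from 2.85 to 10.3 CPM per kb, while Mcm4 stays at 1.39.

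The first comparison asked whether nanoceria altered these genes. Averaged over the 3 regimes, none of the 10 passed the edgeR quasi-likelihood test at an adjusted p of 0.05, against 0% of the 11558 genes. None had an unadjusted p under 0.05, against 6.54% of all tested genes, and DESeq2 and limma voom also called 0 of the 10. The median log2 difference of the 10 was 0.06, against -0.03 over all tested genes, with 5 above and 5 below 0. Mcm3 (0.76 ± 0.42, SE) and Mcm7 (0.65 ± 0.33) had positive estimates, as had Cdc7 (1.47 ± 0.84). The Cdc7 estimate fell to 0.27 without space without gravity, nanoceria replicate 3, and to 0.41 without land, nanoceria replicate 3. Dbf4 was at -0.76 ± 0.41 (edgeR adjusted p 0.772). For the 9 genes besides Dbf4 the 95% intervals reached from -2.17 to 3.24 on the log2 scale, and 7 of the 9 included a 2-fold change in at least one direction, so a change of that size was not excluded for these.

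The estimates for Dbf4 by regime were 0.87 ± 0.68 in space without gravity, 0.13 ± 0.70 in space with gravity and -3.27 ± 0.78 on land (edgeR adjusted p 1.00, 1.00 and 0.310). Land with nanoceria replicate 2 held 17 Dbf4 counts, against 2 and 1 in the other land libraries with nanoceria, and without it the land estimate was -4.82 (adjusted p 0.106). The groups overlapped in space without gravity, where replicate 3 with no nanoceria (43.3 CPM) lay above replicate 1 with nanoceria (39.0 CPM), and they did not overlap on land. The test of whether the nanoceria effect differed between the 3 regimes gave an edgeR adjusted p of 0.719 for Dbf4 (unadjusted 0.00199). DESeq2 called the land difference (adjusted p 0.00147, log2 -3.34), as did edgeR without the filter on low counts (adjusted p 0.00434, log2 -3.26). These were the only 2 of 8 alternatives that called it, and 0 of 6 fits without 1 library did. The land libraries with nanoceria also enter the difference known when the list was made, so nothing is supported with this. How many of all tested genes part on land without overlap was not counted.

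The second comparison asked what withdrawing gravity did in space. Averaged over nanoceria, none of the 10 passed, against 0% of all genes, and DESeq2 and voom again called 0 of the 10. Over all tested genes 5.85% had an unadjusted p under 0.05 in this comparison. Of the 10, only Dbf4 did (1.10 ± 0.49 on the log2 scale, a 2.14-fold higher level without gravity, unadjusted p 0.0379, edgeR adjusted p 0.818). Its 6 libraries without gravity ranged from 15.8 to 72.0 CPM with a median of 41.2, and the 5 larger libraries with gravity from 7.90 to 26.4 CPM with a median of 23.7, so the ranges overlapped. The median of the 10 genes was 0.36, against 0.04 over all genes. Mcm6 was at 0.88 ± 0.53 and Cdc7 at 1.51 ± 1.02, the latter turning to -0.30 without the library that gave most of its counts. Cdc6 was at -0.78 ± 0.88 and turned to 0.45 without space with gravity, no nanoceria replicate 3, and to 0.95 without space with gravity, nanoceria replicate 2. Of the 9 genes besides Dbf4, 8 had an interval that included a 2-fold change.

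Space with gravity was then compared with land. Dbf4 was the 1 of 10 genes that passed, at 1.97 ± 0.52 on the log2 scale, a 3.92-fold higher level in space (edgeR adjusted p 0.0210), while 14.0% of all genes passed in one direction or the other. A share of 1 in 10 is thus no higher than the share of all genes. The land libraries with nanoceria also enter the difference known when the list was made, so this call is no independent support. The libraries overlapped, with 7.90 to 26.4 CPM in space and 0.325 to 18.5 CPM on land. The difference was not even across nanoceria levels: it was 3.67 ± 0.80 with nanoceria (edgeR adjusted p 0.0675) and 0.27 ± 0.68 with no nanoceria (edgeR adjusted p 0.848), where DESeq2 size factors turned it to -0.17. The difference between these effects, 3.40 ± 1.03, did not pass (edgeR adjusted p 0.682). The call was lost without space with gravity, no nanoceria replicate 2 (1.88, adjusted p 0.0523), without space with gravity, nanoceria replicate 1 (1.84, adjusted p 0.0681), and with the share of the 6 most abundant genes as a covariate (1.78, adjusted p 0.451). Without land with nanoceria replicate 2 the averaged difference was 2.79 (adjusted p 0.00989) and that with nanoceria 5.27 (adjusted p 0.0415).

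Among the other 9 genes, Mcm4 (0.98 ± 0.48, edgeR adjusted p 0.163) and Cdc6 (1.60 ± 0.93, adjusted p 0.248) had positive estimates against land, and Cdc6 turned to -0.11 without space with gravity, nanoceria replicate 2. Mcm6 was at -0.94 ± 0.54 (adjusted p 0.240) and Cdt1 at -0.65 ± 0.57 (adjusted p 0.460). None of them passed, and with the share of the abundant genes as a covariate Mcm4 turned to -0.064 and Cdt1 to 1.32. The median of the 10 was 0.18, against -0.04 over all genes. That share also moved with the regime, from 24.5% to 54.4% in the larger libraries of space with gravity to 49.6% to 76.3% on land, and its part in these differences was not tested further.

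Last, space without gravity was compared with land. Dbf4 again was the 1 gene of the 10 that passed, at 3.07 ± 0.53 (8.41-fold higher in space, edgeR adjusted p 0.00874), against 5.25% of all genes. This average includes the difference that was known when the list was made, so it is no independent support. In that pair, with nanoceria, the estimate was 5.14 ± 0.83, a 35.3-fold higher level in space, from 39.0, 72.0 and 60.4 CPM against 0.740, 3.41 and 0.325 CPM. Leaving out single libraries moved that estimate between 4.71 and 6.72, the latter without land with nanoceria replicate 2. Only 0.0433% of all genes, 5 in number, passed in that pair, from which nothing is read here. With no nanoceria the estimate was 1.00 ± 0.69 (edgeR adjusted p 0.549), and 1 of the 3 space libraries (15.8 CPM) lay within the land range of 11.8 to 18.5 CPM. The averaged call held in all 12 fits without 1 library (2.87 to 3.88, the latter without the same land library) and was lost with the covariate (2.98, adjusted p 0.0584). DESeq2 size factors moved the median of all genes to -0.28 here and to -0.39 for space with gravity against land, and relative to these medians Dbf4 was at 3.09 and 2.02.

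**Figure D4:**
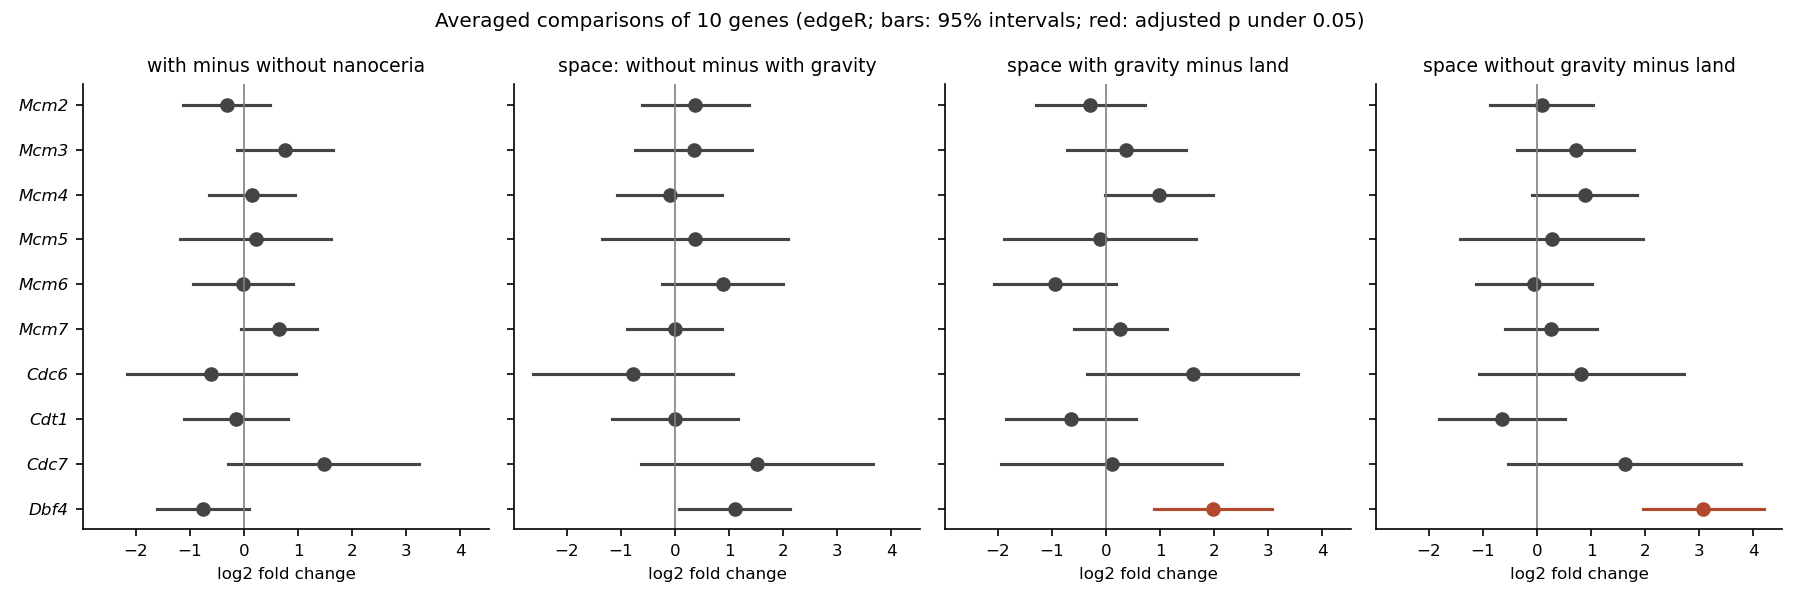
Log2 fold changes of the 10 genes (rows) in the 4 averaged comparisons (panels), with 95% intervals from edgeR. Dbf4 is the one gene past the threshold, in the panels against land at 1.97 and 3.07, and most other intervals span 0. Both panels against land use the land libraries with nanoceria of the difference known when the list was made.

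The other 9 genes did not pass against land without gravity either. Cdc7 was at 1.62 ± 1.02 (edgeR adjusted p 0.339) and turned to -0.17 when the library with most of its counts was left out, and to 3.27 without land, nanoceria replicate 3. Mcm4 (0.88 ± 0.46, adjusted p 0.245) and Mcm3 (0.71 ± 0.51, adjusted p 0.405) had positive estimates, and Cdt1 was at -0.65 ± 0.55 (adjusted p 0.486), turning to 0.38 with the covariate. The median of the 10 was 0.49, against -0.02 over all genes. Tested for any difference among the 6 groups, Dbf4 passed (edgeR adjusted p 0.0299) and the other 9 did not, against 2.08% of all genes; the Dbf4 call was lost in 9 of 18 fits without 1 library. This test too includes the difference known when the list was made and is no independent support.

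**Figure D5:**
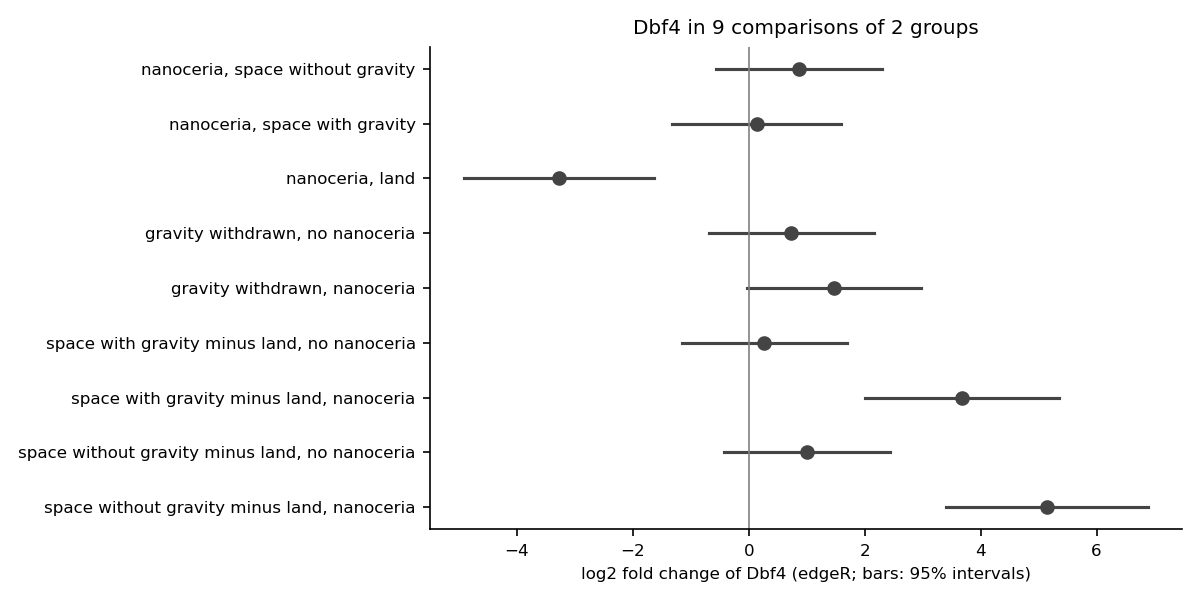
Log2 fold change of Dbf4 (horizontal axis) in 9 comparisons of 2 groups (rows), with 95% intervals from edgeR. The 3 largest differences, 5.14, 3.67 and -3.27, all involve the land group with nanoceria. The first of them is the difference known when the list was made, and its interval supports nothing.

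Besides the difference already known, the unadjusted intervals of Dbf4 in these comparisons excluded 0 only where land with nanoceria took part. These were space with gravity against land with nanoceria and nanoceria on land, and neither passed the test (edgeR adjusted p 0.0675 and 0.310). Both share those land libraries with the known difference and are therefore not independent of it or of one another. Slc25a40, which shares the start region of Dbf4 and was looked at after its values were seen, stood at 2.96, 2.40 and 0 CPM on land with nanoceria and at 2.11, 2.56 and 2.63 CPM on land with no nanoceria, so the land groups overlapped, unlike those of Dbf4. In space without gravity it ranged from 2.32 to 23.0 CPM. Its averaged difference between space without gravity and land was 2.03 ± 0.65 and did not pass (edgeR adjusted p 0.0721).

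The other replication and cell cycle genes were taken as 9 lists of 91 genes, of which 84 were tested. None passed for nanoceria or for gravity withdrawn in space. At an unadjusted p under 0.05 stood 5 and 7 of the 84, against 6.54% and 5.85% of all tested genes, so nothing is read from these counts. For space with gravity against land 8 of 84 passed, 6 higher and 2 lower, and for space without gravity against land 4 of 84 passed, all higher. Over all genes 14.0% and 5.25% passed, so these lists held no larger share of calls than the genes at large, and the genes below are described singly. Their medians were 0.07 and 0.42 on the log2 scale. In neither comparison did a gene of the origin recognition complex (6 tested), of Cdt1 turnover (6 tested) or of the helicase partners and firing factors (7 tested) pass.

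Ccne2, cyclin E2, which drives entry into S phase, was higher in space with gravity than on land by 2.98 ± 0.65 (edgeR adjusted p 0.0105) and in space without gravity by 2.81 ± 0.64 (adjusted p 0.0232). It ranged from 1.48 to 5.59 CPM on land, from 4.94 to 36.0 CPM in space with gravity and from 2.88 to 41.8 CPM in space without gravity. Mcm8, an MCM relative that works in recombination and not in the licensed ring, was higher by 2.72 ± 0.83 with gravity (edgeR adjusted p 0.0378) and by 3.14 ± 0.82 without (adjusted p 0.0373). The land libraries held 0 to 1.95 CPM of Mcm8 and those in space 1.17 to 17.6 CPM. Tfdp1, the dimer partner of E2F factors, was higher with gravity than on land by 1.86 ± 0.55 (edgeR adjusted p 0.0335). Its land libraries with no nanoceria (37.5 to 69.9 CPM) lay within the range of space with gravity (17.8 to 110.2 CPM), and those with nanoceria (6.66 to 17.03 CPM) below it. With the covariate the Tfdp1 estimate was 0.074 (adjusted p 0.995). Bub1, a mitotic checkpoint kinase, was higher without gravity than on land by 2.61 ± 0.70 (edgeR adjusted p 0.0390).

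Rrm2, the small subunit of ribonucleotide reductase, and Cdk2, the kinase partner of cyclin E, moved the other way. Rrm2 was lower in space with gravity than on land by -2.65 ± 0.57 (edgeR adjusted p 0.00994), with 28.7 to 119 CPM against 153 to 978 CPM and no overlap. The share of all tested genes that part likewise was not counted. Cdk2 was lower by -2.13 ± 0.66 (edgeR adjusted p 0.0397), with 6.97 to 18.8 CPM against 9.27 to 145 CPM. The remaining calls, named after their values were seen, were Rrm1 (1.67 ± 0.49), Rfc1 (1.40 ± 0.41) and Kat7 (1.30 ± 0.39) with gravity against land, and Rfc1 (1.67 ± 0.41) without gravity against land. Rrm2 and Ccne2 passed with gravity against land in 12 of 12 fits that left out 1 library. The calls of Mcm8, Tfdp1, Cdk2, Bub1, Rrm1, Rfc1 and Kat7 passed in 2 to 4 of 12 such fits, and that of Ccne2 without gravity in 7 of 12. With the share of the 6 most abundant genes as a covariate every one of these calls was lost, with an edgeR adjusted p of 0.173 for Rrm2 and 0.347 for Ccne2 with gravity against land.

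Pairs of the 10 genes had low correlations across libraries in the median, and other gene pairs were not taken for comparison. Over the 17 larger libraries the Pearson correlation of log2 CPM had a median of 0.131 over their 45 pairs and of 0.230 over the 15 pairs of MCM subunits. Dbf4 with the MCM subunits had a median of 0.079. Single pairs ranged from -0.503 (Cdc6 with Cdt1) to 0.653 (Mcm3 with Mcm5). These are descriptions of sparse counts in libraries that differ in depth and composition. Among 6124 other genes whose average log2 CPM was 3 or more, those most like Dbf4 over the same libraries were Nifk (r = 0.928), Zbtb1 (0.888), Fam114a2 (0.864), Naaa (0.852) and Wdr76 (0.840). For the mean of the MCM subunits they were Tjp1 (0.736), Flna (0.723), Top2a (0.708), Tmem45a (0.703) and Cxcl1 (0.701). For the mean of all 10 genes they were Gm7993 (0.740), Tjp1 (0.737), Tmem45a (0.725), Pip5k1c (0.684) and Fam111a (0.684). On land with nanoceria, where Dbf4 was lowest, Nifk stood at 2.59, 8.61 and 3.58 CPM. Zbtb1 stood there at 2.22, 7.21 and 0.651 CPM and Wdr76 at 0.370, 1.60 and 0 CPM. On land with no nanoceria all 3 genes were higher in every library. Their likeness to Dbf4 is therefore not separate from its group difference.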

How the data were processed

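Each deposited file gave the authors' whole-number read counts for 1 library by Ensembl gene, beside coordinates and merged exon length, per the file headers. Reads were processed with CASAVA, Trimmomatic 0.36.29, STAR and featureCounts of Subread on GRCm38.p6, per the submitters' processing notes, which give no roles or strand setting. The 18 small RNA samples were not analysed here. A table of Ensembl gene names gave symbols to 48970 of 49315 genes, and GENCODE M21 gave exon overlaps and transcript lengths.

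All 18 libraries, the smallest included, entered 1 fit in edgeR 4.0.16 (R 4.3.3): filterByExpr, TMM, a group-means model with robust quasi-likelihood (12 residual degrees of freedom) and Benjamini-Hochberg adjustment over 11558 genes, threshold 0.05. Log2 fold changes carry the standard error of the fit. Levels are TMM-scaled CPM. The test was also run on simulated counts with less spread than these data and with large changes only in better counted genes. That run does not show how the test performs on sparse genes. Alternatives used DESeq2 1.42.0, limma 3.58.1 (voom), other filters, sample sets and scalings, a covariate, and each library left out.

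The genes, lists and tests were chosen with earlier results of these data known. All 10 genes are described. From the other lists, up to 3 highest and 3 lowest log2 fold changes past the threshold were named per averaged comparison. The genes most like a profile were the 5 of highest Pearson correlation.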

Additional observations from a re-analysis of the deposited data

Results flagged for a closer look

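The estimates for Mcm4 with gravity withdrawn had opposite signs at the 2 nanoceria levels, neither past the threshold, and the larger libraries with and without gravity did not overlap at either level. The log2 difference, without minus with gravity, was 1.03 with no nanoceria and -1.24 with nanoceria. All 3 libraries without gravity were above all 3 with gravity in the first case and below the larger libraries with gravity in the second. The nearest libraries were close, 4.19 against 4.12 CPM in the first case and 8.01 against 8.23 CPM in the second. The share of all genes parted in this way was not counted. The difference between these effects had an unadjusted p of 0.0248 and an edgeR adjusted p of 1.00.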

How the results depend on the processing

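Counts of the 10 genes past the threshold changed as follows. With the share of the 6 most abundant genes as a covariate, 0 passed for space with gravity against land, for space without gravity against land, for the latter pair with nanoceria and for any difference among groups. For that pair with nanoceria 0 also passed with voom and with the compared groups only. DESeq2 and the fit without a filter gave 1 (Dbf4) for nanoceria on land and 1 for space with gravity against land with nanoceria, where a mean of at least 50 counts also gave 1. Without a filter, 1 passed for a nanoceria effect that differs between regimes and 2 (Cdc7 and Dbf4) for any difference. Voom gave 1 (Mcm2) for space with gravity against land with no nanoceria. Outside the averaged comparisons, the share of all genes that passed under these settings is not given here. Nothing is therefore read from these counts.

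Leaving out single libraries gave 0 to 1 for space with gravity against land, both averaged (2 of 12 fits at 0) and with nanoceria (1 of 6 at 1, without land with nanoceria replicate 2). With nanoceria, space without gravity against land gave 0 to 1 (5 of 6 at 0), as did any difference (9 of 18 at 0). The first of these holds the difference known when the genes were listed, and the second includes it. The counts for space with gravity against land use the same land libraries with nanoceria. All these counts are a record and support nothing. Signs turned for genes that did not pass. Voom put Cdc6 at 0.077 for nanoceria, 1.07 for gravity withdrawn and -0.17 for space with gravity against land. The covariate put Mcm4 at -0.064 and Cdt1 at 1.32 for space with gravity against land and Cdt1 at 0.38 for space without gravity against land. Dbf4 in space with gravity against land with no nanoceria was -0.17 with DESeq2 size factors, -0.17 with DESeq2 and -0.060 with a mean of at least 50 counts. Across fits without 1 library, Cdc6 ranged from -1.77 to 0.21 for nanoceria, from -1.25 to 0.95 for gravity withdrawn and from -0.11 to 2.21 for space with gravity against land. Cdc7 ranged from -0.30 to 2.19 for gravity withdrawn and from -0.17 to 3.27 for space without gravity against land, and Dbf4 from -0.24 to 0.44 for nanoceria in space with gravity. The cause was not tested.

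Over all genes, space without gravity against land called 607 genes, against 1524 with DESeq2, 1466 without a filter, 989 with voom, 387 with the compared groups only and 6 with the covariate. Space with gravity against land called 1613, against 2691 with DESeq2, 1072 with the compared groups only and 1 with the covariate. Nanoceria and gravity withdrawn called 0 each, against 214 and 229 without a filter and 1 and 11 with DESeq2.

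No paired analysis was possible because the labels number no replicates. The length of the principal transcript was chosen after seeing the data. Per-kb levels outside the 6 most abundant genes without TMM were higher for all 10 genes, with Mcm7 and Dbf4 still first at 6.61 and 5.78. Cdc7 and Mcm5 had the fewest counts, 166 and 187 in all libraries.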
